A study of Mus musculus with 2 samples.

Results

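The miR-17 to 92 cluster and its paralogs on chromosomes 5 and X are represented here by 10 mature mouse miRNAs, chosen by name as the arms of these hairpins usually taken as the guide strands. All 10 were found among the 677 miRBase-named miRNAs of the deposited table, which has 2083 entries in all with the predicted miRNAs. Small RNA was sequenced from exosomes, vesicles shed into the medium by pancreatic islets of C57BL/6 mice. The NCD library stands for mice given normal chow, with 4% fat, and the HFD library for mice given a high-fat diet, with 60% fat. Per the labels' protocols, both sets of islets were cultured in medium without serum exosomes, and vesicles were pelleted by ultracentrifugation. The labels give neither the age and number of the mice nor the number of islet preparations behind a library. With 1 library per diet there is no spread between replicates and no test, and every difference given is between these 2 libraries.

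The 3 clusters are copies of an ancestral unit and are transcribed as long precursors from which several hairpins are cut. The miR-17 to 92 cluster is driven by MYC and E2F factors and is known for promoting proliferation and cell survival in B cells and other cells, while the miR-106b to 25 cluster lies in Mcm7, the gene of a subunit of the replicative helicase. A miRNA finds its targets mainly through its seed, bases 2 to 8, so the members fall into 4 target families. The miR-17 family represses the cell cycle inhibitor Cdkn1a and the pro-apoptotic Bcl2l11, and miR-25 and miR-92a were reported to lower insulin synthesis in rat islet cells.

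The mature sequences of the members are shown because the seed groups and the single bases that tell members apart both bear on the counts. They are from RefSeq (build GRCm38.p6), 5′ to 3′, with the seed in capitals, and the mouse prefix mmu is left out of the names from here on.
mmu-miR-17-5p: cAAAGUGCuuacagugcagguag
mmu-miR-20a-5p: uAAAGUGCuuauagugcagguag
mmu-miR-93-5p: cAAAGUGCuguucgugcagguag
mmu-miR-106b-5p: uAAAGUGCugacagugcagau
mmu-miR-18a-5p: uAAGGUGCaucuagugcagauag
mmu-miR-19a-3p: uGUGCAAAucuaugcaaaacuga
mmu-miR-19b-3p: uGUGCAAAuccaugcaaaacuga
mmu-miR-25-3p: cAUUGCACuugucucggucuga
mmu-miR-92a-3p: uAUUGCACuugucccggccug
mmu-miR-363-3p: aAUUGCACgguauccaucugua

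Counted from the 5′ end, miR-19a-3p and miR-19b-3p differ by U11C alone over 23 bases. miR-17-5p and miR-20a-5p differ by C1U and C12U. miR-25-3p and miR-92a-3p differ at 3 of 21 compared bases, by C1U, U14C and U18C, whereas miR-25-3p and miR-363-3p share the seed but differ at 13 of 22. The seed of miR-18a-5p differs from that of miR-17-5p by A4G. How the authors counted reads that matched several miRNAs is not stated in the labels or headers. Counts of the closest pairs may be exchanged in part, or a read may be counted under each name it matches. Outside the members, miR-199a-3p and miR-199b-3p had the same counts, 324 in NCD and 371 in HFD. miR-465a-3p, miR-465b-3p and miR-465c-3p each had 14 and 9. The counting rule was not tested.

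The clusters are compact in the genome (GENCODE M21, GRCm38). The 6 hairpins of miR-17 to 92 lie within 836 bases on the plus strand of chromosome 14 (chr14:115043671-115044506), in an exon of the non-coding host gene Mir17hg. The 3 hairpins of miR-106b to 25 lie within 498 bases on the minus strand of chromosome 5 (chr5:138165321-138165818), inside Mcm7. Of these, Mir106b is intronic in every Mcm7 transcript that spans it, and Mir93 and Mir25 are intronic in all but 1 of 3. The third, X-linked cluster, from miR-106a to miR-363, holds 6 hairpins within 875 bases on the minus strand of chromosome X (chrX:52741693-52742567). The mature miR-19b-3p and miR-92a-3p are identical in the chromosome 14 and X clusters, so their counts cannot be assigned to either. miR-106a, miR-18b and miR-20b, which would mark the X-linked cluster, have no entry for either arm in the table. miR-106a-5p differs from miR-17-5p by U10A alone. That leaves miR-363 as the only hairpin counted here that belongs to the X cluster alone.

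The NCD library held 2417589 counts and the HFD library 2020831. Values below are counts per 1000000 counts of the library (CPM), and a count of 0 allows up to 1.24 CPM in NCD and 1.48 CPM in HFD. Ratios are HFD over NCD with a 95% exact counting interval. Intervals and limits cover counting error only, since the labels name no molecular identifiers and PCR copies may be counted as separate reads. A miRNA counted as measured with 10 or more counts in either library, and as called if its log2 ratio, with 1 CPM added to both values, was at least 1 either way. By that rule of size, 25.3% of 387 measured miRBase-named miRNAs were called higher in HFD (98) and 9.56% lower (37). Scaled by median-of-ratios size factors instead, the split was 78 and 52, and these factors lowered the median log2 ratio of all measured miRBase-named miRNAs by 0.26.

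Of the 10 members 3 were called higher in HFD, 0 were called lower and 7 were within 2-fold. The 3 were miR-18a-5p, miR-19a-3p and miR-19b-3p, the rarest members in NCD. The median log2 ratio of the members was 0.30, against 0.33 for all measured miRBase-named miRNAs. All 7 members with at least 10 NCD counts were within 2-fold. The 3 called members had under 10 NCD counts, and so could be measured only through HFD. Of the 44 miRBase-named miRNAs in that position, 90.9% were called higher, against 16.9% of the 343 with at least 10 NCD counts. Read against these shares and the 25.3% of all measured miRNAs, 3 of 10 does not set the members apart.

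**Figure D1:**
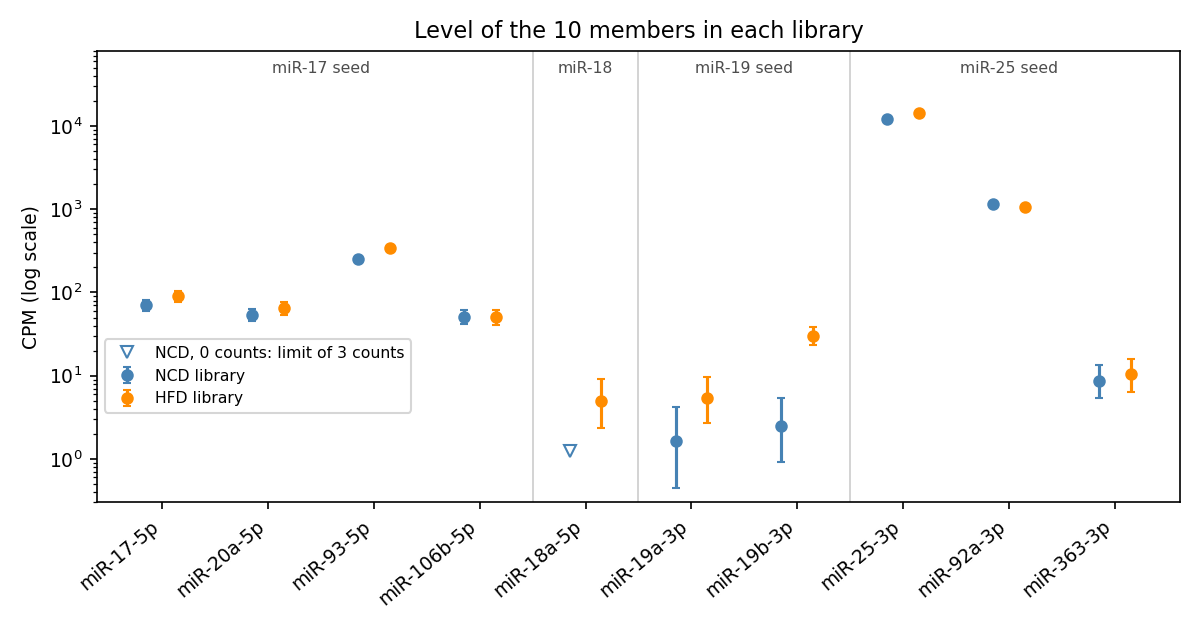
CPM of the 10 members on a log axis in the NCD (blue) and HFD (orange) libraries, ordered by seed group, with 95% exact Poisson counting intervals; the open triangle is the limit of 3 counts for miR-18a-5p, which had 0 counts in NCD. miR-25-3p lies highest, at 12045 and 14272 CPM, and of the members seen in both libraries miR-19b-3p has the widest gap between them, from 2.48 to 30.2 CPM.

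The members, all 21 to 23 bases long, differed widely in level. miR-25-3p took 88.4% of the members' counts in NCD and 89.6% in HFD, and ranked 12th and 10th among miRBase-named miRNAs. In NCD it was followed by miR-92a-3p, miR-93-5p, miR-17-5p, miR-20a-5p, miR-106b-5p, miR-363-3p, miR-19b-3p, miR-19a-3p and miR-18a-5p. The order in HFD was the same except that miR-19b-3p stood above miR-363-3p. In both libraries the neighbours miR-20a-5p and miR-106b-5p did not differ beyond counting error, and neither did miR-19a-3p and miR-18a-5p. The same was true of miR-19b-3p and miR-19a-3p in NCD and of miR-363-3p and miR-19a-3p in HFD. All other neighbours had intervals of their ratio above 1.

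The seed group of miR-25, miR-92a and miR-363 held 96.8% of the members' counts in NCD and 96.3% in HFD. Its summed level was 13195 CPM in NCD and 15337 CPM in HFD, a ratio of 1.16 (1.14 to 1.18). miR-25-3p was counted 29120 times in NCD and 28842 times in HFD, which is 12045 and 14272 CPM. Its ratio was 1.18 (1.17 to 1.20), and its log2 ratio was -0.01 with median-of-ratios size factors. miR-92a-3p, which restrains vessel growth when present in mouse endothelium, went the other way. It had 2758 and 2131 counts, or 1141 and 1055 CPM, a ratio of 0.924 (0.873 to 0.978). Removing the trend with GC content described last changed its sign, to a log2 ratio of 0.25. The pair can also be compared free of library scaling. miR-25-3p had 10.6 times the counts of miR-92a-3p in NCD (10.2 to 11.0) and 13.5 times in HFD (13.0 to 14.1), so the proportion was 1.28 times as high in HFD (1.21 to 1.36). This proportion is not free of the GC trend. With that trend removed the log2 ratios of miR-25-3p and miR-92a-3p lay closer together, at 0.33 and 0.25. miR-363-3p had 21 counts in each library, or 8.69 and 10.4 CPM, a ratio of 1.20 whose interval of 0.622 to 2.30 allows either direction.

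The miR-17 seed group summed to 426 CPM in NCD and 551 in HFD, a ratio of 1.29 (1.19 to 1.41). miR-93-5p, the most abundant of the 4, had 607 and 700 counts, or 251 and 346 CPM, and a ratio of 1.38 (1.24 to 1.54). miR-17-5p, a regulator of E2F1 and of the G1 to S transition, had 169 and 181 counts, or 69.9 and 89.6 CPM, and a ratio of 1.28 (1.03 to 1.59). For both, the counting interval lay above 1 and the value below 2-fold. miR-20a-5p, which lies downstream of miR-17 on the same precursor, had 130 counts in each library, or 53.8 and 64.3 CPM. Its ratio of 1.20 (0.931 to 1.54) allows either direction. miR-106b-5p, which represses Cdkn1a, had 123 and 102 counts, or 50.9 and 50.5 CPM, and a ratio of 0.992 (0.755 to 1.30). Of the 8 alternatives run for single members, the deposited TPM only repeated the main values. The log2 ratios of miR-17-5p and miR-93-5p stayed above 0 under each of the 8, down to 0.10 and 0.20 with median-of-ratios size factors. That of miR-20a-5p was 0 with those factors and -0.08 with the GC trend removed.

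The miR-19 group had the widest difference with counts in both libraries, on few counts. miR-19b-3p, the member that carries most of the survival-promoting activity of the cluster in mouse B cell lymphoma together with miR-19a, was counted 6 times in NCD and 61 times in HFD. These are 2.48 CPM (0.911 to 5.40) and 30.2 CPM (23.1 to 38.8), a ratio of 12.2 (5.28 to 34.4). Its log2 ratio was the ninth highest of the 387 measured miRBase-named miRNAs. Over the alternatives that log2 ratio ran from 1.69, with 10 CPM added, to 3.55, with 0.1 CPM added. miR-19a-3p, which differs from it by 1 base, had 4 and 11 counts, or 1.65 and 5.44 CPM. Its ratio of 3.29 has an interval from 0.975 to 14.2, and it came within 2-fold with a pseudocount of 10 CPM and with the GC trend removed. Summed over both, the group was counted 10 times in NCD and 72 times in HFD, a ratio of 8.61 (4.42 to 18.7). Reads exchanged between miR-19a-3p and miR-19b-3p leave this sum unchanged, but a read counted under both names would enter it more than once. In the authors' deposited table the log2 fold change was 3.43 for miR-19b-3p and 1.54 for miR-19a-3p.

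miR-18a-5p, known to repress connective tissue growth factor, was not seen in NCD (0 counts) and was counted 10 times in HFD, at 4.95 CPM (2.37 to 9.10). Against the floor of 3 counts in NCD its level in HFD was 3.99-fold higher, leaving out the counting error in HFD. The lower end of the counting interval of the ratio was 2.68. Its fitted log2 ratio depended on the pseudocount and was 0.58 with 10 CPM. By counting error alone 2 of the 10 members, miR-18a-5p and miR-19b-3p, had their whole interval above 2-fold. The same held for 15% of the measured miRBase-named miRNAs. The whole interval lay above a ratio of 1 for 5 members and below it for 1, against 47.5% and 25.3% of all measured miRBase-named miRNAs.

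**Figure D2:**
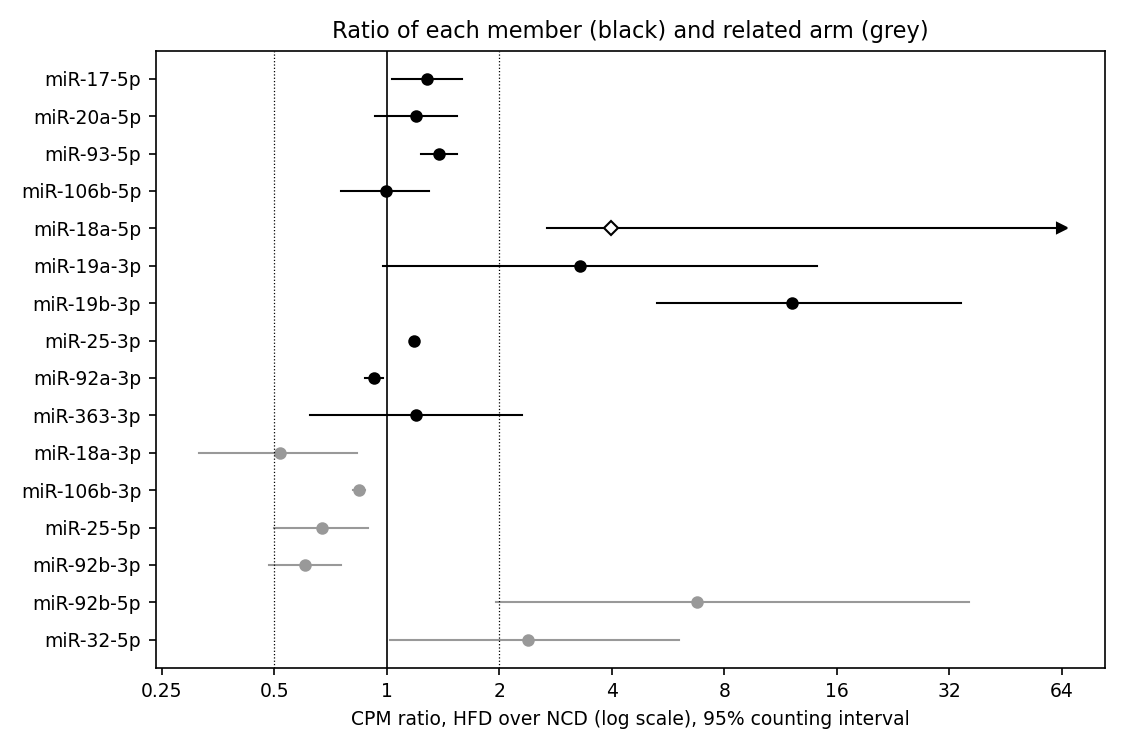
CPM ratio of HFD over NCD on a log axis with 95% exact counting intervals, for the 10 members (black) and 6 measured related arms (grey). Dotted lines mark 2-fold either way. The open diamond is the ratio of 3.99 against the floor of 3 NCD counts for miR-18a-5p, whose interval has no upper end. Members with at least 10 NCD counts sit between ratios of 0.924 and 1.38, and miR-19b-3p stands at 12.2.

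Members of the same cluster had unequal levels and unequal ratios. In the chromosome 14 cluster, with miR-19b-3p and miR-92a-3p assigned to it in full, miR-92a-3p took 89.9% of the cluster's guide counts in NCD (88.8 to 91.0, exact binomial interval) and 84.4% in HFD (83.0 to 85.8). miR-17-5p took 5.51% (4.73 to 6.38) and 7.17% (6.19 to 8.25). miR-19b-3p took 0.196% (0.0718 to 0.425) and 2.42% (1.85 to 3.09). These shares do not depend on how the libraries are scaled.

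Set against miR-17-5p, miR-20a-5p and miR-92a-3p, miR-19b-3p was more abundant in HFD than in NCD beyond counting error. These comparisons all rest on the same 6 NCD counts of miR-19b-3p, which was measured only through HFD. Of miRBase-named miRNAs in that position 90.9% were called higher, so the comparisons are not separate support. miR-19b-3p had 0.0355 counts per count of miR-17-5p in NCD and 0.337 in HFD, 9.45 times as many (3.96 to 27.5). Relative to miR-20a-5p, whose hairpin is the next one upstream on chromosome 14, the change in proportion was 10.1 times (4.18 to 29.6). Relative to miR-92a-3p it was 13.2 times (5.69 to 37.3). The proportion of miR-19a-3p to miR-19b-3p was 0.667 in NCD and 0.180 in HFD, and the interval of its change, 0.0543 to 1.55, includes 1. miR-20a-5p and miR-17-5p kept a proportion of 0.769 in NCD and 0.718 in HFD, and the interval of their change, 0.669 to 1.30, includes 1. miR-92a-3p went from 16.3 to 11.8 counts per count of miR-17-5p, a change of 0.721 times (0.577 to 0.902), with no GC trend removed. With the GC trend removed the log2 ratios of miR-92a-3p and miR-17-5p were 0.25 and 0.35.

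In the miR-106b to 25 cluster the shares of the guide counts differed little. miR-25-3p took 97.6% of the guide counts in NCD (97.4 to 97.7) and 97.3% in HFD (97.1 to 97.5). miR-93-5p took 2.03% (1.88 to 2.20) and 2.36% (2.19 to 2.54), and miR-106b-5p 0.412% (0.343 to 0.491) and 0.344% (0.281 to 0.418). The proportion of miR-106b-5p to miR-93-5p was 0.719 times as high in HFD as in NCD (0.535 to 0.965).

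The other arm of each hairpin was examined because the named guide was not always the arm found in the vesicles. Of 12 such passenger arms 5 had an entry and 3 were measured, and 0 of the 3 were called in either direction, where 34.9% of measured miRBase-named miRNAs were called. The 3p arms of miR-17, miR-20a and miR-93 had no entry. The hairpins of miR-106b and miR-18a, in which the 3p arm was the more abundant in both libraries, are shown with the 5p arm and then the 3p arm in capitals (RefSeq, GRCm38.p6).
Mir106b (chr5:138165737-138165818, minus strand): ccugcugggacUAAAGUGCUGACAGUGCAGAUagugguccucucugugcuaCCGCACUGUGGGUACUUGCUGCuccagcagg
Mir18 (chr14:115043851-115043946, plus strand): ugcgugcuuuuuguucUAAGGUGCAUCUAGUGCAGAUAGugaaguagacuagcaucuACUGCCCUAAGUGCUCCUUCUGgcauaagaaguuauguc

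miR-106b-3p was the second most abundant product of the 3 clusters. Its 6408 NCD counts and 4516 HFD counts correspond to 2651 and 2235 CPM, a ratio of 0.843 (0.811 to 0.876). Its log2 ratio was -0.25, and with the GC trend removed it changed sign to 0.37. The arm usually called the guide, miR-106b-5p, made up 1.88% of the hairpin's counts in NCD (1.57 to 2.24) and 2.21% in HFD (1.80 to 2.67). The odds of the 5p arm were 1.18 times as high in HFD, with an interval of 0.893 to 1.55 that includes 1. miR-106b-3p does not carry the miR-17 seed. Against it, miR-25-3p was 1.41 times more abundant in HFD than in NCD (1.35 to 1.47) and miR-93-5p 1.64 times (1.46 to 1.84), with no GC trend removed.

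The arms of miR-18a went opposite ways. miR-18a-3p, with 60 NCD counts and 26 HFD counts (24.8 and 12.9 CPM), was 1.93-fold lower in HFD (1.20 to 3.18), while miR-18a-5p went from 0 to 10 counts. The 5p arm thus made up 0 of 60 counts in NCD (exact interval up to 5.96%) and 27.8% of 36 counts in HFD (14.2 to 45.2). The odds of the 5p arm were higher in HFD by at least 4.64 times, the lower end of their exact interval. miR-18a-5p was measured only through HFD, and 90.9% of miRBase-named miRNAs in that position were called higher. The change in arm share is therefore not separate support. The log2 ratio of miR-18a-3p was -0.90. It passed 2-fold lower under median-of-ratios scaling (-1.14) and TMM scaling (-1.04), and with the 5 top miRNAs taken out of the totals (-1.02). It was smaller in size with the GC trend removed (-0.64) and with a pseudocount of 10 CPM (-0.61).

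miR-25-5p, the rare arm of miR-25, had 136 and 76 counts, or 56.3 and 37.6 CPM, and a ratio of 0.669 (0.498 to 0.892). Its 3p partner had a ratio above 1 in CPM. The log2 ratios of the 5p and 3p arms were -0.57 and 0.24. They were -0.13 and 0.33 with the GC trend removed, and -0.82 and -0.01 with median-of-ratios size factors. The 5p arm made up 0.465% of the miR-25 hairpin's counts in NCD (0.390 to 0.550) and 0.263% in HFD (0.207 to 0.329). Its odds were 0.564 times as high in HFD (0.420 to 0.753). For miR-363 the 5p arm had 4 and 0 counts, too few to compare.

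**Figure D3:**
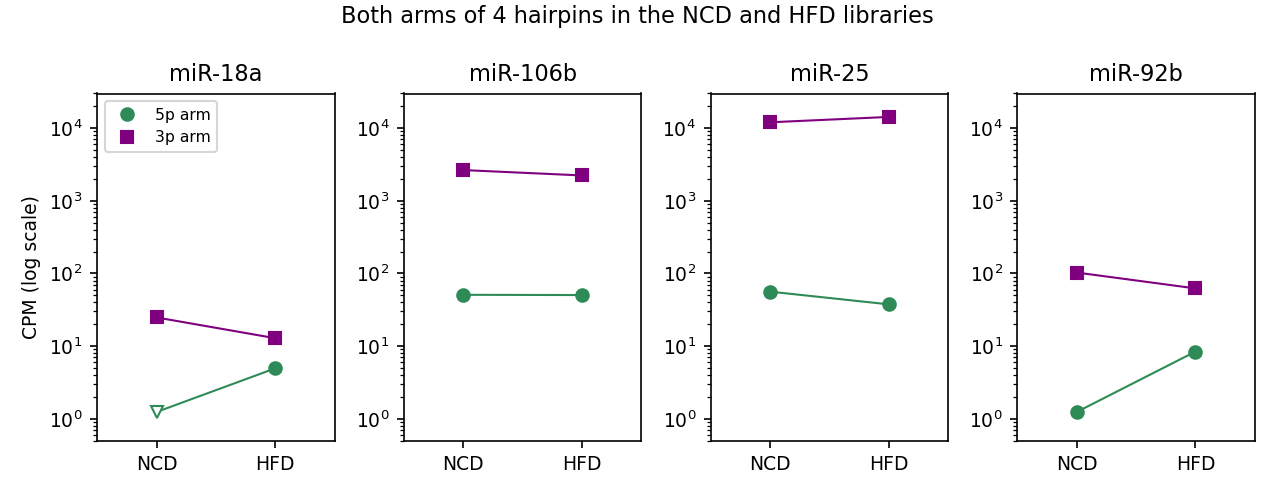
CPM of the 5p (green circles) and 3p (purple squares) arms of 4 hairpins in the NCD and HFD libraries on a log axis; the open triangle is the limit of 3 counts for an arm with 0 counts. In CPM the arms of miR-18a, of miR-25 and of miR-92b move in opposite directions between the libraries, and miR-106b-3p lies far above miR-106b-5p in both. miR-18a-5p and miR-92b-5p were measured only through HFD.

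Outside the 3 clusters, miR-92b and miR-32 carry the miR-25 seed, AUUGCAC, on 1 of their arms. Of the 6 arms of miR-92b, miR-32 and miR-367 4 had an entry and 3 were measured, with 2 called higher and 0 lower. Both of these had under 10 NCD counts, where 90.9% of miRBase-named miRNAs were called higher, against 25.3% of all measured. miR-92b-3p, which differs from miR-92a-3p by U10C and G21C over 21 bases, had 249 and 126 counts, or 103 and 62.4 CPM, and a ratio of 0.605 (0.485 to 0.753). Its log2 ratio was -0.72, or -0.10 with the GC trend removed. miR-92b-5p, which has another seed, had 3 and 17 counts and a ratio of 6.78 (1.96 to 36.1). With a pseudocount of 10 CPM it came within 2-fold, at a log2 ratio of 0.71. The 5p arm made up 1.19% of the miR-92b counts in NCD (0.246 to 3.44) and 11.9% in HFD (7.08 to 18.4). miR-32-5p, which represses Bcl2l11, had 9 and 18 counts and a ratio of 2.39 (1.02 to 6.05). It came within 2-fold with TMM factors, median-of-ratios size factors, a pseudocount of 10 CPM and the GC trend removed. Neither arm of miR-367 had an entry.

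**Figure D4:**
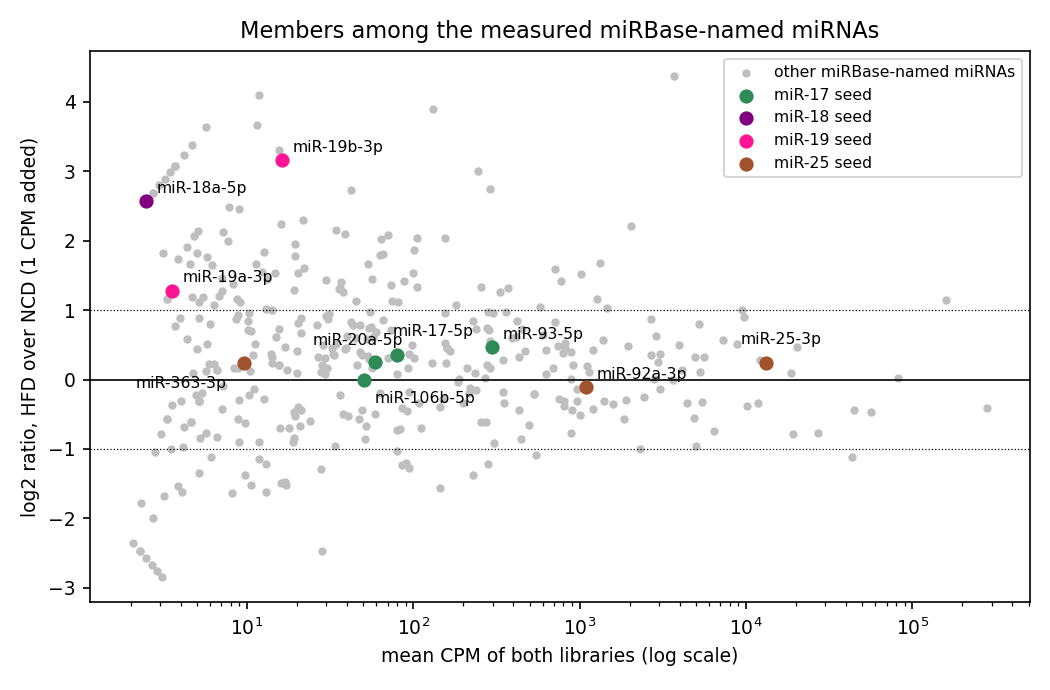
Log2 ratio of HFD over NCD, with 1 CPM added to both values, against the mean CPM of both libraries on a log axis, for the 387 measured miRBase-named miRNAs (grey) and the 10 members coloured by seed group; dotted lines mark log2 ratios of 1 either way. The members past 2-fold all lie at low mean CPM, where the grey points spread most, and miR-25-3p and miR-92a-3p lie near 0.

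By level in both libraries, the miRNA nearest to miR-25-3p was miR-26a-5p, with 10952 CPM in NCD and 13308 in HFD, followed by let-7c-5p, miR-423-3p, let-7f-5p and miR-451a. Nearest to miR-92a-3p were miR-129-5p, with 1101 and 1192 CPM, miR-425-5p, miR-382-5p, miR-495-3p and miR-433-3p. Nearness was measured as the Euclidean distance between log10 CPM values over the 2 libraries, and says only that the levels are alike.

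The vesicle RNA held markers of islets and of other cells, and fewer cells of a type cannot be told apart from less RNA per cell. As summed here, the hepatocyte and red blood cell markers took more counts than the islet markers. Islet endocrine markers (miR-375-3p, miR-7a-5p and miR-7b-5p) summed to 8.63% of NCD and 8.97% of HFD counts. All 5 red blood cell markers were found in both libraries, and their sum was 12.5% of NCD and 9.89% of HFD counts, a ratio of 0.793 (0.789 to 0.798). None of the 5 was called. Within that list only miR-486a-5p and miR-486b-5p were lower in HFD, and these held most of the summed level. miR-486a-5p took 5.16% of NCD and 3.82% of HFD counts, and miR-486b-5p took 6.60% and 4.77%. Whether a read was counted under both names is not stated, so the rank of this sum above the islet markers is not settled. The remaining markers were higher in HFD beyond counting error. Levels of miR-451a went from 6796 to 12683 CPM, those of miR-144-3p from 42.2 to 63.8 CPM and those of miR-144-5p from 256 to 296 CPM. The hepatocyte markers, miR-122-5p and miR-122-3p, took 32.1% and 24.2%. Nearly all of this was miR-122-5p, while miR-122-3p, with 34 and 128 counts, was called higher at a ratio of 4.50 (3.07 to 6.78). The 4 leukocyte markers summed to 1571 CPM in NCD and 2301 in HFD, a ratio of 1.46 (1.40 to 1.53), with 2 called higher, where 25.3% of all measured miRBase-named miRNAs were. The 2 endothelial markers had a ratio of 1.99 (1.95 to 2.03), the 3 acinar markers 2.95 (2.50 to 3.49) and the 3 striated muscle markers 17.4 (16.4 to 18.6). The part of these cell types in the values of the members was not tested.

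Base composition moved with the ratios. Across 338 measured miRBase-named miRNAs with a RefSeq mature sequence (87.3% of 387), the log2 ratio was lower where GC content was higher, with a Spearman rho of -0.37. The points share both libraries and are not independent. Among the members GC content ran from 34.8% for miR-19a-3p and 39.1% for miR-19b-3p to 57.1% for miR-92a-3p, which had the lowest ratio. Of the 57 measured miRNAs with a GC content at or under that of miR-19b-3p, 31.6% were called higher and 3.51% lower. miR-20a-5p has the same GC content as miR-19b-3p, and their ratios were 1.20 and 12.2. miR-19b-3p was measured only through HFD. With the GC trend removed the log2 ratio of miR-19b-3p was 2.82 in place of 3.16. The part of base composition in the values of the members was not tested.

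**Figure D5:**
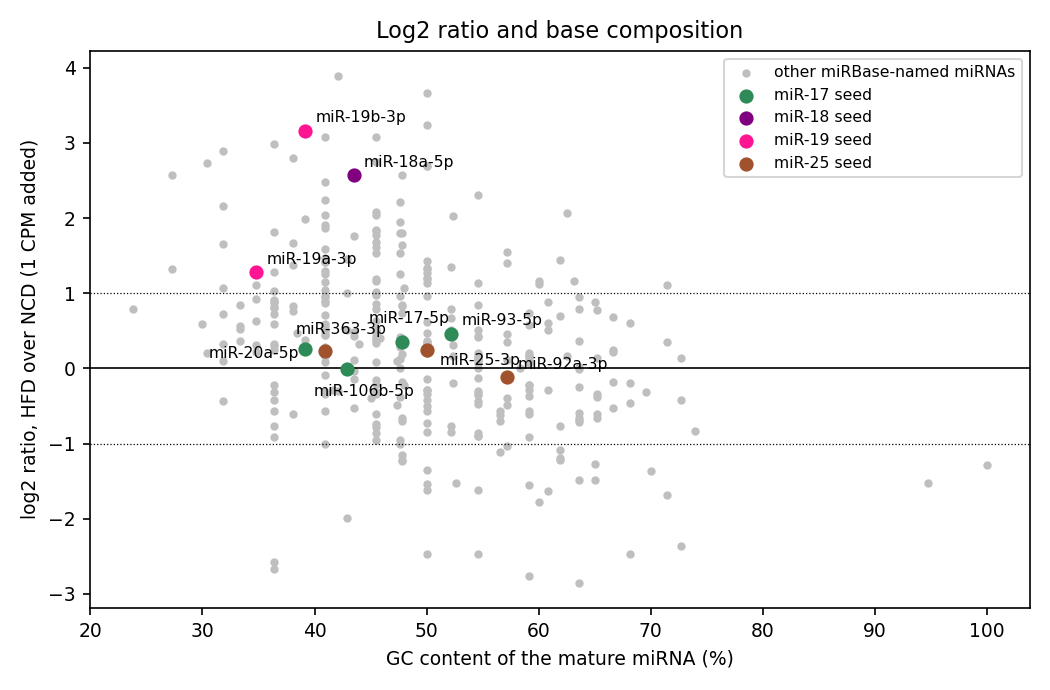
Log2 ratio of HFD over NCD, with 1 CPM added to both values, against the GC content of the mature miRNA in percent, for 338 measured miRBase-named miRNAs (grey) and the 10 members coloured by seed group. miR-20a-5p and miR-19b-3p share a GC content of 39.1% and lie at log2 ratios of 0.25 and 3.16.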

How the data were processed

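The data are a single deposited table. Per the file headers it lists each mature miRNA with the authors' raw count for each library and a TPM value. It also lists the authors' log2 fold change between the libraries with its p-value and FDR. The deposited TPM values equalled the CPM computed from the deposited counts. The deposited p-values were not used, since there is 1 library per diet. The submitters' processing notes name GRCm38 as the build. No aligner, miRNA caller or rule for reads with several matches is stated in the labels or headers.

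CPM, ratios, exact Clopper-Pearson intervals conditional on the sum of both counts, exact Poisson intervals and conditional odds ratios were computed with scipy 1.17.1 in Python 3.11.15, and tested on simulated data. The confidence level was 95%, the count minimum 10, the pseudocount 1 CPM and the floor for a count of 0 was 3 counts per library. The mature sequences of all 10 members, and of 32 of all 34 names, matched RefSeq entries. All members were named in the text, as were the related arms with at least 10 counts and the 5 miRNAs nearest in level to each of the 2 most abundant members. The members, lists and rules were chosen with earlier results of these data known. Alternatives used TMM factors (edgeR 4.0.16), median-of-ratios size factors (DESeq2 1.42.0), other totals, the deposited TPM, other pseudocounts and count minimums, and removal of a linear trend with mature GC content.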

Additional observations from a re-analysis of the deposited data

How the results depend on the processing

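No paired analysis was possible because each diet has 1 library, and no replicate could be left out. The count of 3 members past 2-fold became 1 with a pseudocount of 10 CPM and 0 where 100 counts were required, which leaves 6 members, and stayed at 2 or 3 under the other 8 alternatives. Among these, the deposited TPM only repeated the main values. Among all miRBase-named miRNAs, 53 were called higher and 10 lower with a pseudocount of 10 CPM, 40 and 11 with a minimum of 100 counts, and 170 and 81 with no count minimum. TMM factors shifted the median log2 ratio of measured miRBase-named miRNAs by -0.15 and median-of-ratios size factors, which came out as 1 for both libraries, by -0.26. The summed log2 ratio of the miR-17 seed group was 0.37, or 0.22 and 0.11 with these factors. That of the miR-25 seed group was 0.22, or 0.069 and -0.042, 0.13 when the 5 top miRNAs of either library were taken out of the totals, and 0.32 with the GC trend removed. With a pseudocount of 10 CPM the miR-18 value was 0.58 in place of 2.57, and the miR-19 group 1.69 in place of 2.83. The median of the members ran from 0.05 to 0.34. Shares within a cluster that left out miR-19b-3p and miR-92a-3p put miR-17-5p at 55.8% in NCD and 54.5% in HFD. With both arms counted, miR-25-3p took 80.0% and 84.2% of its cluster. Few counts limit miR-18a-5p, miR-19a-3p and miR-363-3p.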
